A study of Mus musculus with 4 samples.

Results

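The tRNA genes for alanine, cysteine and threonine were followed in small RNA from mouse sperm, taken as every feature of the tRNA class whose name contains tRNA-Ala-, tRNA-Cys- or tRNA-Thr- and summed by anticodon. They are 117 of the 438 tRNA genes listed, with 39 genes for alanine, 61 for cysteine and 17 for threonine. The sperm came from the cauda epididymis of adult C57BL/6 males, with 2 mice in the group labelled extra cross to wildtype and 2 in the group labelled original cross, and 1 library per mouse. The labels give the same wash in PBS for all 4 libraries and no other treatment, and the libraries shared 1 sequencing lane. The study asks about sperm that can or cannot undergo epigenetic silencing of a LoxP site, the sequence recognised by Cre recombinase; which of the crosses is the susceptible one, and any transgene the mice carried, are not given in the labels.

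A tRNA carries 1 amino acid to the ribosome and reads the messenger RNA through the 3 bases of its anticodon, so tRNAs with different anticodons can serve the same amino acid. In mature sperm most tRNA reads are fragments, often the 5′ part left when the molecule is cut at the anticodon loop, and many of these are gained while sperm pass through the epididymis. Alanine and cysteine tRNAs are known for 5′ fragments that start with a run of guanines and can repress translation in cultured human cells. In the alanine AGC and threonine AGT tRNAs the first anticodon base is changed from adenosine to inosine by the ADAT2 and ADAT3 deaminase, and cysteine and threonine tRNAs are methylated near their 3′ end by NSUN6.

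Of the RefSeq tRNA genes, 1 for alanine and 1 for threonine lie whole inside a RefSeq promoter window of build GRCm38.p6 and are printed to show the anticodon and, in the alanine tRNA, the run of guanines at the 5′ end. The anticodon is in capitals, at positions 33 to 35 of 72 bases in n-TAagc16 (chromosome 13, 21222586 to 21222657, plus strand) and at 35 to 37 of 74 bases in n-TTagt9 (chromosome 7, 35234770 to 35234843, minus strand).
n-TAagc16: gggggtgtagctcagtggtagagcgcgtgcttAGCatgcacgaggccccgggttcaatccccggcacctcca
n-TTagt9: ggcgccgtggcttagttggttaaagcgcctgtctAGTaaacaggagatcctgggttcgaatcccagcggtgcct
RefSeq names tRNA genes in its own series, so these 2 genes cannot be joined to a deposited gene name and stand only for their anticodon.

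RefSeq places 48 of 56 cysteine GCA genes in 1 stretch of chromosome 6 (47978997 to 48363603). Alanine AGC genes lie mostly on chromosome 13 (9 of 13), and alanine TGC genes mostly on the X chromosome (7 of 11). Threonine genes are spread, with 4 of 9 AGT genes on chromosome 13 and the rest on chromosomes 7, 11 and 14.

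Values are RPM as deposited, in 2 tables with 1 library of each cross; the total they are relative to is not stated. The commonest microRNA value in a library was read as the value of 1 read, so 10 RPM stood for 15.6 and 42.1 reads in extra-cross replicates 1 and 2, and for 6.33 and 17.8 reads in original-cross replicates 1 and 2. Fragments of 10 sperm transcripts (Prm1, Prm2, Tnp1 and others) were near 0, at no more than 2.81 RPM in the 3 libraries whose RefSeq rows share a scale. MicroRNAs of other cells were present in every library. The 5 of epididymal epithelium, none of them at 0, summed to 10409 and 5315 RPM in the extra cross and to 4394 and 2055 RPM in the original cross, so the extra cross was higher in both tables. Only mir-200b went the other way, in replicate 2 (438 RPM in the extra cross, 448 RPM in the original cross). The 6 of smooth muscle and stroma, likewise none at 0, summed to 3382 and 5078 RPM in the extra cross and to 8547 and 6264 RPM in the original cross, so the extra cross was lower in both. Here only mir-143 went the other way, in replicate 2 (2162 RPM in the extra cross, 1867 RPM in the original cross). Nearly the same values stand for mir-199a-1 and mir-199a-2, so the stroma sum counts them doubly. The part of these cells in the differences between crosses was not tested.

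No alanine, cysteine or threonine tRNA sum differed between the crosses beyond the spread between the 2 libraries of a cross. That spread holds differences between mice and any difference between the 2 tables, which cannot be told apart. Together the 117 genes summed to 3811 and 5636 RPM in the extra cross and to 3697 and 6685 RPM in the original cross. Their share of all tRNA reads was 2.20% and 1.94% in the extra cross and 1.95% and 2.18% in the original cross. The crosses overlap on both measures (exact two-sided permutation test, p = 1 for each, the smallest possible with 2 mice against 2 being 0.333). In bulk sperm a change in the cells that give a fragment and a change in the amount per cell cannot be told apart.

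By amino acid, cysteine was highest, with 2437 and 3099.8 RPM in the extra cross and 1972 and 4425 RPM in the original cross. Alanine had 1075 and 1991 RPM in the extra cross, against 1149.7 and 1843 RPM in the original cross. Threonine was lowest, at 299.8 and 545.7 RPM in the extra cross and 575 and 418 RPM in the original cross. For every amino acid the values of the crosses overlap, with exact permutation p = 1 for cysteine and alanine and p = 0.667 for threonine (two-sided, n = 2 per cross). The alanine share of the tRNA class was the only one of the 3 whose crosses did not overlap. It was 0.621% and 0.684% in the extra cross and 0.606% and 0.600% in the original cross. The exact permutation p was 0.333, the smallest possible. The share of no single alanine anticodon separated. Shares of some other anticodons did, among them arginine CCT (0.042% and 0.058% in the extra cross, 0.091% and 0.069% in the original cross). Over the 4 sums and 4 shares compared, of each amino acid and of all 3 together, every Benjamini-Hochberg adjusted permutation p was 1.

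**Figure D1:**
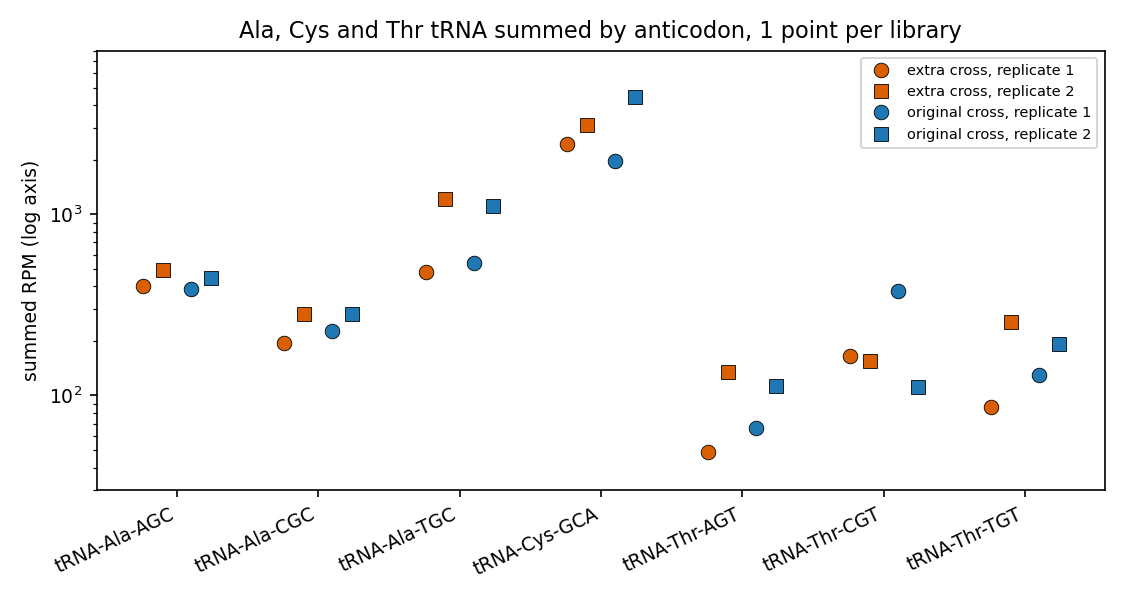
Summed RPM on a log axis for the 7 measured anticodons, 1 point per library, with the extra cross left of the original cross and replicate 1 drawn as a circle and replicate 2 as a square. The circles and squares lie further apart than the crosses for tRNA-Ala-TGC, and original-cross replicate 1 stands above the other 3 libraries for tRNA-Thr-CGT.

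The cysteine and threonine sums came out as whole reads in all 4 libraries, within 0.05 reads, although few single gene values were whole. Cysteine rested on 3796 and 13037 reads in the extra cross and on 1248 and 7887 reads in the original cross. Threonine rested on 467 and 2295 reads in the extra cross and on 364 and 745 reads in the original cross. Exact 95% Poisson intervals, which cover counting error only, did not overlap between any 2 libraries for threonine (273 to 328 and 524 to 568 RPM in the extra cross, 518 to 637 and 388 to 449 RPM in the original cross) except for extra-cross replicate 2 and original-cross replicate 1. The alanine sums were not whole in any library. Division of reads within alanine alone would leave whole sums, so the alanine sums may hold parts of reads shared with features outside alanine. Near-identical values recur across alanine anticodons: tRNA-Ala-TGC-3-1 had 62.4, 105.9, 68.6 and 89.7 RPM in extra-cross replicates 1 and 2 and original-cross replicates 1 and 2, next to 62.3, 105.8, 68.6 and 89.0 RPM for tRNA-Ala-CGC-1-1. Sums of single threonine anticodons were not whole in extra-cross replicate 1 either (75.7, 257.2 and 134.1 reads for AGT, CGT and TGT). The anticodon sums within alanine, and those within threonine, therefore cannot be read as independent of each other.

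Cysteine GCA tRNA was the most abundant of the anticodons described here and ranked between 12 and 16 of 54 in the 4 libraries. It had 2437 RPM in the extra cross and 1972 RPM in the original cross of replicate 1, and 3099.7 RPM in the extra cross and 4425 RPM in the original cross of replicate 2. The extra cross was thus 1.24-fold above the original cross in one table and 1.43-fold below it in the other, a pattern shared by 11% of the 501 features tested and 14.9% of the 47 tRNA sums. The limma log2 fold change was -0.10 ± 0.78 (SE), with a 95% interval from 0.272-fold to 3.19-fold.

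Few of the cysteine genes carried these reads. The 7 genes numbered 1 to 3 (tRNA-Cys-GCA-1-1 to tRNA-Cys-GCA-3-4) held 92.7% and 93.2% of the sum in the extra cross and 95.4% and 95.3% in the original cross. Of the 3 distinct sets of values among them, tRNA-Cys-GCA-3-1 and its 3 copies had 325 and 422 RPM in the extra cross and 272 and 611 RPM in the original cross. tRNA-Cys-GCA-2-1 had 320.5 and 407 RPM in the extra cross, against 265 and 595 RPM in the original cross, and tRNA-Cys-GCA-1-1 with its copy had 319.97 and 396 RPM, against 265 and 587 RPM. The 29 genes numbered 4, which share 1 value, had 3.83 and 3.76 RPM each in the extra cross and 1.69 and 3.85 RPM in the original cross. Among all 60 cysteine GCA genes 51 stayed below a mean of 10 RPM, and none of these exceeded 6.30 RPM in any library. The gene tRNA-Cys-ACA-1-1, with another anticodon, was listed at 0.119 RPM in extra-cross replicate 2 and at 0 in the other 3 libraries.

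Alanine tRNA fell into 3 measured anticodons, led by TGC. tRNA-Ala-TGC had 480 and 1215 RPM in the extra cross and 538 and 1117 RPM in the original cross. tRNA-Ala-AGC had 401 and 494 RPM in the extra cross and 386 and 442 RPM in the original cross, higher in the extra cross of both tables (0.06 and 0.16 on the log2 scale), although lower in replicate 1 when libraries were scaled to the sum of the 5 classes (-0.21). tRNA-Ala-CGC had 194 and 282 RPM in the extra cross and 226 and 283 RPM in the original cross, lower in the extra cross of both tables (-0.22 and -0.0079), but it turned higher in both tables under median-ratio scaling (0.30 and 0.40). AGC was the only one of the 7 sums higher in both tables and CGC the only one lower in both. Of all 501 features tested 20.6% were higher and 46.9% lower in both, and of the 47 tRNA sums 12.8% and 42.6%. In none of the 7 sums did the crosses separate without overlap, which 40.1% of all features and 10.6% of the tRNA sums did. The limma log2 fold changes were 0.11 ± 0.75 for AGC, -0.11 ± 0.71 for CGC and -0.02 ± 0.87 for TGC (SE). Their 95% intervals ran from 0.330-fold to 3.52-fold, from 0.302-fold to 2.83-fold and from 0.251-fold to 3.87-fold. The gene tRNA-Ala-GGC-3-1 was listed at 0.119 RPM in extra-cross replicate 2 and at 0 elsewhere.

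The alanine TGC sum was mostly 1 gene in replicate 2 but not in replicate 1. tRNA-Ala-TGC-2-1 alone had 163 and 959 RPM in the extra cross and 214 and 821 RPM in the original cross, which was 33.9% and 78.9% of its anticodon in the extra cross and 39.8% and 73.5% in the original cross. The other 10 alanine TGC genes together had 317 and 256 RPM in the extra cross and 324 and 296 RPM in the original cross. tRNA-Ala-TGC-4-1 had 46.0 and 51.4 RPM in the extra cross, below the 57.8 and 55.5 RPM of the original cross.

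Alanine AGC reads were spread over more genes, of which 14 of 17 reached a mean of 10 RPM, in 9 distinct sets of values. The most abundant was tRNA-Ala-AGC-3-1, at 44.3 and 29.6 RPM in the extra cross and 46.4 and 38.7 RPM in the original cross. tRNA-Ala-AGC-8-1 had 42.3 and 23.7 RPM in the extra cross, against 46.4 and 34.3 RPM in the original cross. tRNA-Ala-AGC-2-1 and its copy had 14.4 and 65.3 RPM in the extra cross and 12.2 and 48.8 RPM in the original cross. On the deposited scale 5 of the 9 sets were higher and 4 lower in the extra cross of both tables. Some pairs of these sets, such as tRNA-Ala-AGC-6-1 and tRNA-Ala-AGC-7-1, differ in extra-cross replicate 2 alone, so they are not separate observations. The gene tRNA-Ala-AGC-1-1 had 13.4 and 12.7 RPM in the extra cross, above the 9.48 and 10.9 RPM of the original cross, a log2 fold change of 0.33 ± 0.45. tRNA-Ala-AGC-7-1 had 32.8 and 26.9 RPM in the extra cross and 45.7 and 31.4 RPM in the original cross (-0.34 ± 0.43, but 0.11 under median-ratio scaling).

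Alanine CGC was carried by the genes numbered 1 and 2. tRNA-Ala-CGC-1-1 and its copy had 62.3 and 105.8 RPM in the extra cross and 68.6 and 89.0 RPM in the original cross. tRNA-Ala-CGC-2-1 had 48.5 and 51.1 RPM in the extra cross, below the 68.3 and 77.6 RPM of the original cross. This was the lowest p among all 48 genes tested (log2 fold change -0.54 ± 0.41, unadjusted p = 0.242, limma adjusted p = 0.995). Its log2 fold change stayed negative under all 14 alternative settings, from -0.67 to -0.08. Of these settings, the filters, the fit with no variance trend, the replicate block and identical genes counted once leave it unchanged by construction. tRNA-Ala-CGC-5-1 had 7.13 and 16.5 RPM in the extra cross and 11.9 and 17.6 RPM in the original cross (-0.37 ± 0.58, but 0.05 under median-ratio scaling).

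**Figure D2:**
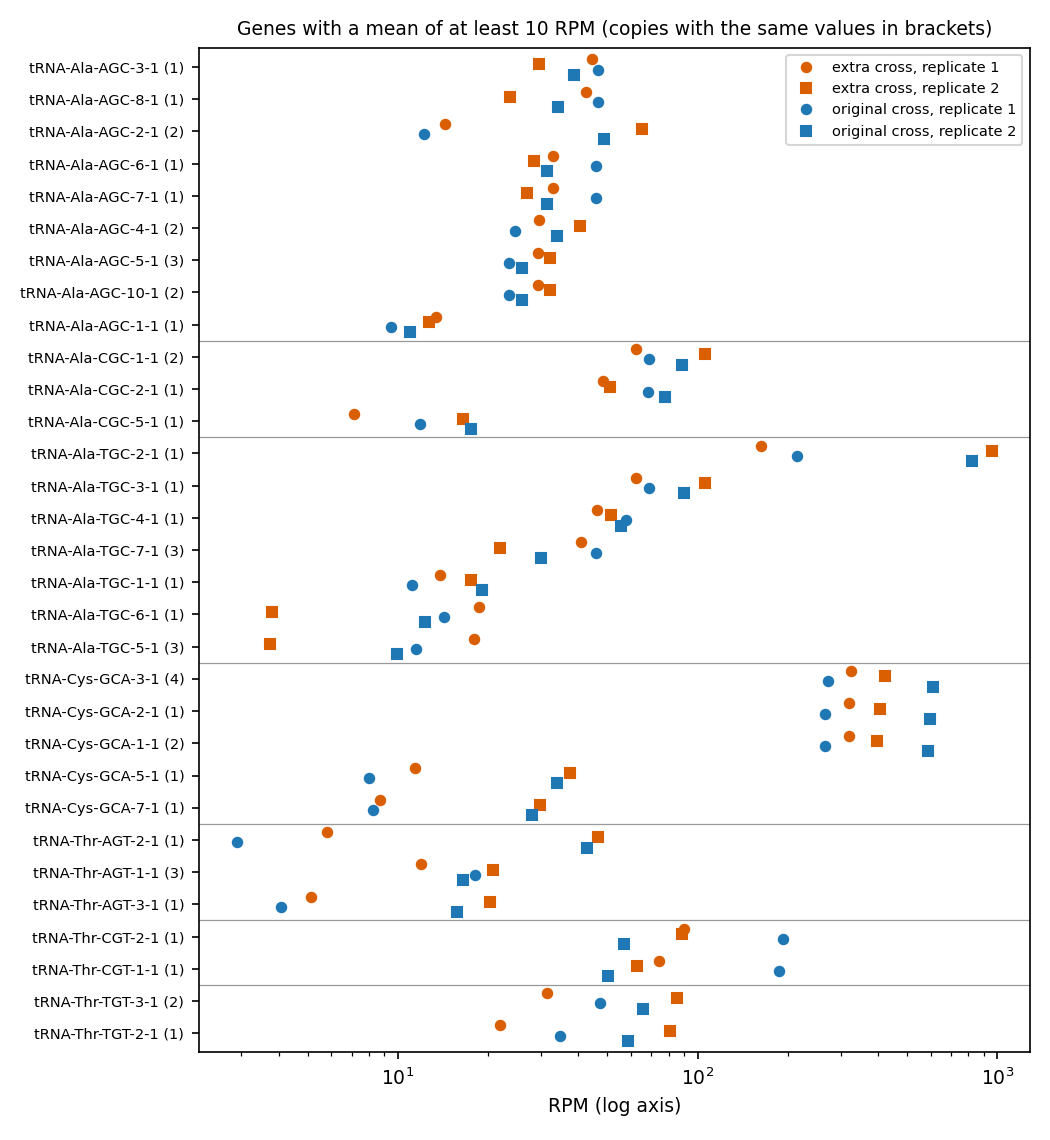
RPM on a log axis for the 31 distinct sets of genes with a mean of at least 10 RPM, 1 row per set named by 1 gene with the number of genes of these values in brackets, and 1 point per library. In tRNA-Ala-TGC-2-1 and tRNA-Thr-AGT-2-1 both replicate 2 libraries (squares) lie to the right of both replicate 1 libraries (circles), while tRNA-Ala-CGC-2-1 separates by cross.

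All 3 threonine anticodons went opposite ways in the 2 tables, lower in the extra cross of replicate 1 and higher in that of replicate 2. tRNA-Thr-CGT had 165 RPM in the extra cross and 379 RPM in the original cross of replicate 1, against 156 RPM in the extra cross and 111 RPM in the original cross of replicate 2. tRNA-Thr-TGT had 86.1 and 256 RPM in the extra cross and 130 and 194 RPM in the original cross. tRNA-Thr-AGT had 48.6 and 134 RPM in the extra cross and 66.0 and 113 RPM in the original cross. On the log2 scale the differences were -1.19 and 0.48 for CGT, -0.59 and 0.40 for TGT and -0.44 and 0.25 for AGT in replicates 1 and 2. The directions stayed as given under the 3 other scalings, except that AGT in replicate 1 became 0.07 under median-ratio scaling. Of all 501 features tested, 21.6% were lower in replicate 1 and higher in replicate 2, and of the 47 tRNA anticodon sums 29.8% were.

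**Figure D3:**
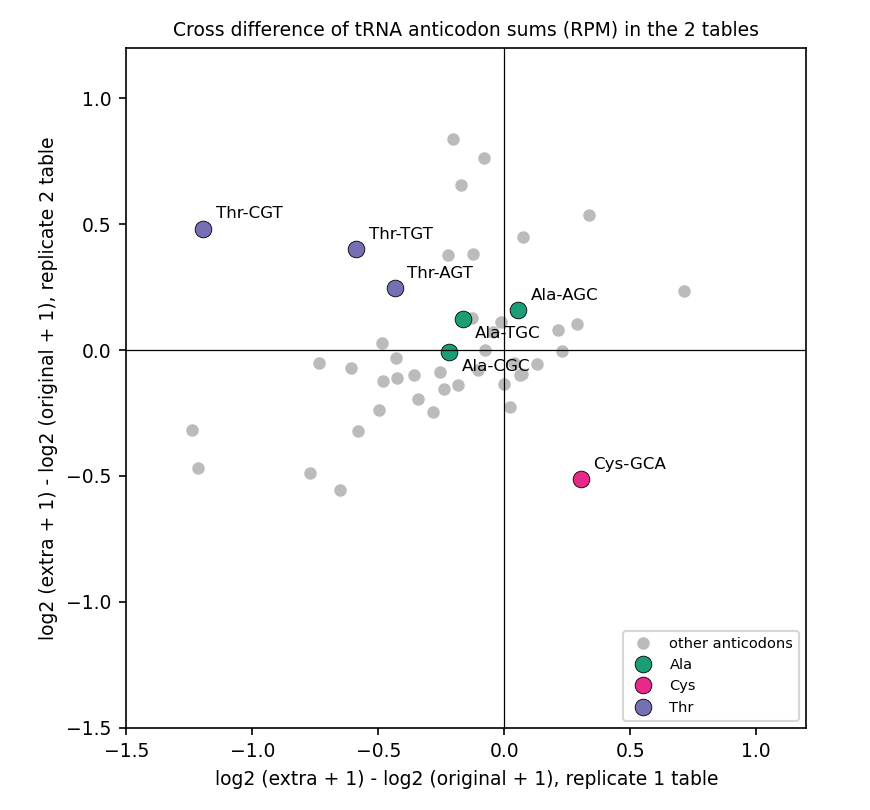
Log2 difference between extra and original cross of each tRNA anticodon sum (RPM + 1), replicate 1 table on the x axis and replicate 2 table on the y axis, with 40 other anticodons in grey. The 3 threonine sums lie in the upper left and tRNA-Cys-GCA in the lower right (0.31 and -0.51), so that neither amino acid keeps 1 direction.

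For threonine CGT a single library made much of the difference. Original-cross replicate 1 had 379 RPM, while the other 3 libraries lay between 111 and 165 RPM. Both of its main genes showed this, tRNA-Thr-CGT-2-1 at 90.2 and 88.3 RPM in the extra cross against 193 and 56.9 RPM in the original cross, and tRNA-Thr-CGT-1-1 at 74.1 and 62.7 RPM against 186 and 50.2 RPM. In extra-cross replicate 1 they stood for 140.5 and 115.5 reads. Reads may thus be divided between them, and they are not 2 separate observations. The limma log2 fold change of the sum was -0.36 ± 0.78 (SE, 95% interval 0.229-fold to 2.66-fold). It was 0.52 without original-cross replicate 1 and -1.24 without original-cross replicate 2. Under median-ratio scaling it was 0.23; relative to the median of all features it was -0.22 on the deposited scale and -0.26 under that scaling. The stroma microRNAs were also highest in original-cross replicate 1, at 8547 RPM. They were next highest, at 6264 RPM, in original-cross replicate 2, where threonine CGT was lowest. In extra-cross replicate 1 they were lowest, at 3382 RPM, while threonine CGT was next highest there. The part of the stroma microRNAs in the threonine CGT value was not tested.

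The other threonine sums had log2 fold changes near 0 with wide errors, -0.09 ± 0.75 for TGT (95% interval 0.289-fold to 3.03-fold) and -0.09 ± 0.67 for AGT (0.330-fold to 2.66-fold). Threonine TGT was carried by tRNA-Thr-TGT-3-1 and its copy, at 31.5 and 85.6 RPM in the extra cross and 47.4 and 65.9 RPM in the original cross, and by tRNA-Thr-TGT-2-1, at 21.8 and 80.7 RPM in the extra cross and 34.8 and 58.3 RPM in the original cross. For AGT, tRNA-Thr-AGT-1-1 and its 2 copies had 11.98 and 20.8 RPM in the extra cross and 18.1 and 16.4 RPM in the original cross. tRNA-Thr-AGT-2-1 had 5.78 and 46.4 RPM in the extra cross and 2.90 and 42.8 RPM in the original cross. tRNA-Thr-AGT-3-1 had 5.14 and 20.3 RPM in the extra cross and 4.08 and 15.7 RPM in the original cross. The values of these last 2 genes in original-cross replicate 1 stand for under 3 reads each.

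In the test across all small RNA features none of the 7 sums passed. With tRNA genes summed by anticodon, 0 of 501 features (0%) reached a Benjamini-Hochberg adjusted p of 0.05 in limma, and 107 (21.4%) had an unadjusted p below 0.05, none of them among the 47 tRNA sums. When libraries were scaled to the sum of the 5 classes 99 features passed, none of them a tRNA sum. With a replicate block 145 passed, of which 1 was a tRNA sum but none was among these 7. The labels do not say that a replicate number marks a pair, so the block was not the main fit. The 7 sums had limma adjusted p from 0.994 to 0.997. Under median-ratio scaling all 7 log2 fold changes were positive, with the median of all features higher by 0.63 than on the deposited scale. With each gene as its own feature, 0 of 760 (0%) passed in limma and 112 (14.7%) had an unadjusted p below 0.05. Of the 117 genes 48 reached a mean of 10 RPM and were tested, and 0 of these 48 passed or had an unadjusted p below 0.05. Their median log2 fold change was -0.12, against -0.12 over all 760 features and -0.10 over the 258 other tRNA genes tested. The 69 genes below the minimum were not tested, and 19 of them averaged under 1 RPM. Values simulated for the table of 501 features gave a call for 2% of the features changed 2-fold, for 42% at 4-fold and for 96% at 16-fold. The simulation drew each library independently, while same-numbered libraries here deviated together (r = 0.936 over 306 tRNA genes). These rates therefore need not hold for the 7 sums. A lack of calls does not show that the crosses were equal.

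By direction on the deposited scale, 14 of the 48 genes were higher and 10 lower in the extra cross of both tables. Another 12 were lower in replicate 1 and higher in replicate 2, and 12 went the other way. These genes include identical copies. Counted once per distinct set of values, the 31 sets split as 9, 8, 8 and 6 in the same order. Over all 760 features 19.9% were higher and 46.3% lower in both, 20.5% were lower in replicate 1 and higher in replicate 2 and 13.3% the other way, while 17.6% and 44.8% of the 306 tRNA genes tested were higher and lower in both. The crosses did not overlap in 8 of the 48 genes, all for alanine (16.7%), against 31.3% of all features and 13.7% of the tRNA genes. These 8 are tRNA-Ala-AGC-1-1, tRNA-Ala-CGC-2-1, tRNA-Ala-TGC-4-1 and 5 AGC genes that share nearly the same values, named after their values were seen. tRNA-Ala-AGC-5-1 and its 2 copies had 29.3 and 32.2 RPM in the extra cross and 23.4 and 25.9 RPM in the original cross, and tRNA-Ala-AGC-10-1 with tRNA-Ala-AGC-12-1 had 29.3 and 32.1 RPM in the extra cross and 23.4 and 25.9 RPM in the original cross. Which genes separate depends on the scaling: under median-ratio scaling 8 genes did, all higher, under scaling to the sum of the 5 classes 6 did, all lower, and scaled to the tRNA class 3 did, none of which separated on the deposited scale.

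The replicates of a cross differed more than the crosses for several genes, and in the same direction in both. These ratios are a description across 2 separately deposited tables, with 1 mouse on each side. tRNA-Thr-AGT-2-1 was 8.04-fold higher in replicate 2 than in replicate 1 in the extra cross and 14.8-fold higher in the original cross, the last resting on under 3 reads. tRNA-Ala-TGC-2-1 was 5.90-fold and 3.84-fold higher, and tRNA-Ala-AGC-2-1 4.54-fold and 3.99-fold higher. tRNA-Cys-GCA-5-1, at 11.4 and 37.6 RPM in the extra cross and 8.01 and 33.9 RPM in the original cross, was 3.30-fold and 4.23-fold higher. The cysteine gene tRNA-Cys-GCA-7-1 was 3.43-fold and 3.41-fold higher, with 8.70 and 29.8 RPM in the extra cross and 8.23 and 28.0 RPM in the original cross. Few reads lie behind original-cross replicate 1 here too, 7.75 for tRNA-Ala-AGC-2-1, 5.07 for tRNA-Cys-GCA-5-1 and 5.21 for tRNA-Cys-GCA-7-1.

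Within alanine AGC and TGC, sets went opposite ways between replicates, with 4 of 9 AGC sets higher and 4 lower in replicate 2 of both crosses, and 3 of 7 TGC sets higher and 3 lower. All 5 cysteine GCA sets, all 3 alanine CGC sets and both threonine TGT sets were higher in replicate 2 of both crosses, and both threonine CGT sets were lower. The whole tRNA class was also higher in replicate 2. It rose from 173022 to 291164 RPM in the extra cross and from 189637 to 306950 RPM in the original cross. The alanine CGC share of it fell, from 0.112% to 0.0968% and from 0.119% to 0.0923%. The cysteine GCA share fell in the extra cross and rose in the original cross, and the threonine TGT share did the reverse. While tRNA-Ala-TGC-2-1 was higher in replicate 2, tRNA-Ala-TGC-7-1 and its 2 copies had 40.9 and 22.0 RPM in replicates 1 and 2 of the extra cross and 46.0 and 29.99 RPM in those of the original cross. tRNA-Ala-TGC-6-1 had 18.6 and 3.80 RPM in the extra cross and 14.2 and 12.3 RPM in the original cross. Of the 31 distinct sets 19 were higher and 9 lower in replicate 2 of both crosses. Several sets have nearly the same values, as tRNA-Cys-GCA-1-1 and tRNA-Cys-GCA-2-1 do (both 265 RPM in original-cross replicate 1). Reads may be divided between such sets, so none of these counts of sets is a count of separate observations. Over the 7 anticodon sums the median log2 difference, replicate 2 over replicate 1, was 0.54 in the extra cross and 0.57 in the original cross, against 0.46 and 0.29 over the 40 other anticodons. In each cross 6 of the 7 sums were higher in replicate 2. Of the 40 others 28 were higher in the extra cross and 25 in the original cross. The 8 blood microRNAs, none at 0, also differed by replicate. They summed to 11186 and 1136 RPM in replicates 1 and 2 of the extra cross. In those of the original cross they summed to 6519.6 and 1229 RPM. The values of mir-486a and mir-486b are the same, and those of mir-142a and mir-142b nearly so, so this sum counts them doubly. The whole microRNA class was also lower in replicate 2. It fell from 441544 to 140437 RPM in the extra cross and from 275809 to 117322 RPM in the original cross. The part of either in the tRNA differences between replicates was not tested.

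**Figure D4:**
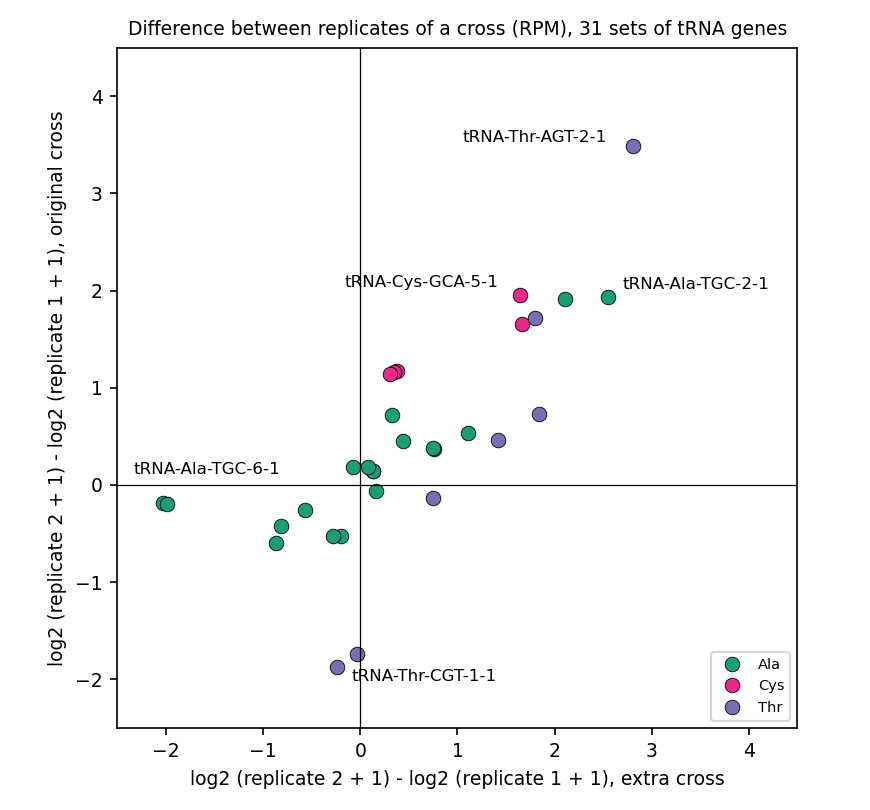
Log2 difference between replicate 2 and replicate 1 (RPM + 1) in the extra cross (x axis) and in the original cross (y axis) for the 31 distinct sets of genes. Most sets lie in the upper right or lower left, with tRNA-Thr-AGT-2-1 and tRNA-Ala-TGC-2-1 at the upper right, and tRNA-Thr-CGT-1-1 lies low, its difference being mainly in the original cross.

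Few reads came from transcripts of the proteins that charge, modify and cut these tRNAs. All 26 listed genes matched a RefSeq transcript, but none averaged 10 RPM over the 3 libraries whose RefSeq rows share a scale, so none was tested; in original-cross replicate 1 the RefSeq rows sum to 7926 RPM, against 131739 to 155300 RPM in the others. The highest value in a single library belonged to Rnh1, the inhibitor of angiogenin and related ribonucleases, which had 12.8 and 5.47 RPM in the extra cross and 6.73 RPM in original-cross replicate 2. Rnase4, a relative of angiogenin, had 5.78 and 6.66 RPM in the extra cross and 12.6 RPM in original-cross replicate 2. Angiogenin itself (Ang) was listed at 0 and 0.476 RPM in the extra cross and had 1.40 RPM in original-cross replicate 2. The synthetase Aars, which loads alanine, had 4.49 and 2.14 RPM in the extra cross and 1.68 RPM in original-cross replicate 2. Cars and Tars, which load cysteine and threonine, stayed below 2 RPM in these libraries.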

How the data were processed

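Small RNA of 4 sperm libraries, 2 per cross, was deposited by the authors as RPM, per the file headers, in 2 tables with 1 library of each cross. CASAVA 1.8.2 and Bowtie 1.1.2 were used with build mm10, per the submitters' processing notes. How reads with several matches were assigned, and the total behind the RPM, are not stated there. Features in 1 table only were set to 0 in the other. Whole reads were not recovered for single genes (2.63% to 11.7% of values were whole within 0.02 reads), so no count model was run. tRNA genes were summed by anticodon and tested with all other small RNA features (miRNA, piRNA, rRNA, repeats) by limma 3.58.1 in R 4.3.3, on log2(RPM + 1), keeping features that averaged 10 RPM or more, with cross as the only term, a variance trend and Benjamini-Hochberg adjustment; fold changes on this scale understate those of low features. Tables were handled in Python 3.11.15 with pandas 2.3.3. The fit was tested on simulated data with 200 changed features and each library drawn independently. The text names every anticodon, the 3 most abundant distinct values of each, and the 3 largest changes in each direction that go the same way in both tables. RefSeq rows have another scale in 1 library, so the pathway list was not tested. Each library is 1 mouse, per the labels. The members and lists were chosen with earlier results of these data known. The alternatives were other pseudocounts, filters, scalings and variance settings, a replicate block, and each library left out.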

Additional observations from a re-analysis of the deposited data

How the results depend on the processing

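Of all features, 0 passed in either table except for 99 in the anticodon table when scaled to the sum of the 5 classes, of which 96 were piRNA loci and none a tRNA sum, 145 and 171 in the anticodon and gene tables with a replicate block, and 0 to 61 in the anticodon table with each library left out (61 without original-cross replicate 2, all piRNA loci). No alanine, cysteine or threonine gene or sum passed under any setting, and the count of these genes called was 0 throughout. Same-numbered libraries deviated together (r = 0.872 over 760 features and 0.936 over 306 tRNA genes). The labels do not say that a number marks a pair, so the block was kept as an alternative. With it the SE of the 7 anticodon sums was 0.28 to 0.40 and their limma adjusted p 0.568 to 0.973. The block leaves the log2 fold changes of anticodon sums as they are by construction. The amino acid values with the replicate block were 0.0070 for alanine, -0.10 for cysteine, -0.28 for threonine and -0.10 for all 3. The cause of these changes in count was not tested.

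Directions moved with the scaling. Median-ratio scaling raised the median of all features by 0.63 in the anticodon table, and gave positive values for Ala-CGC (0.48), Ala-TGC (0.57), Cys-GCA (0.49), Thr-AGT (0.49), Thr-CGT (0.23) and Thr-TGT (0.49), and for the genes tRNA-Ala-AGC-3-1 (0.23), tRNA-Ala-AGC-7-1 (0.11), tRNA-Ala-AGC-8-1 (0.13), tRNA-Ala-CGC-5-1 (0.054), tRNA-Ala-TGC-2-1 (0.38), tRNA-Ala-TGC-4-1 (0.24), tRNA-Cys-GCA-1-1 (0.31), tRNA-Cys-GCA-2-1 (0.32), tRNA-Cys-GCA-3-1 (0.32), tRNA-Thr-AGT-1-1 (0.32), tRNA-Thr-CGT-2-1 (0.23), tRNA-Thr-TGT-2-1 (0.36) and tRNA-Thr-TGT-3-1 (0.35), and for the sums of cysteine (0.20), threonine (0.29) and all 3 amino acids (0.30). Scaled to the sum of the 5 classes, Ala-AGC (-0.029), tRNA-Ala-CGC-1-1 (-0.078), tRNA-Ala-TGC-3-1 (-0.082) and the alanine sum (-0.045) turned negative. Scaled to the tRNA class, Ala-TGC (0.082), Cys-GCA (0.00018), Thr-AGT (0.0072), Thr-TGT (0.0084), tRNA-Ala-TGC-2-1 (0.019), tRNA-Thr-TGT-2-1 (0.0047) and the 3 amino acids together (0.0039) turned positive. The cause was not tested.

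Leaving out 1 library in turn leaves 1 mouse in a cross, assumed to vary like the rest. The log2 fold changes of the anticodon sums ranged as follows: Ala-AGC -0.043 to 0.26, Ala-CGC -0.38 to 0.16, Ala-TGC -0.69 to 0.65, Cys-GCA -0.69 to 0.48, Thr-AGT -0.82 to 0.63, Thr-CGT -1.24 to 0.52, Thr-TGT -0.87 to 0.69. The amino acid sums ranged as Ala -0.48 to 0.41, Cys -0.68 to 0.49, Thr -0.73 to 0.14, all 3 together -0.50 to 0.35. The share difference of all 3 ranged from -0.128 to 0.139 percentage points. The genes ranged as tRNA-Ala-AGC-1-1 0.24 to 0.42, tRNA-Ala-AGC-2-1 -0.74 to 1.37, tRNA-Ala-AGC-3-1 -0.50 to 0.061, tRNA-Ala-AGC-7-1 -0.60 to -0.078, tRNA-Ala-AGC-8-1 -0.73 to 0.085, tRNA-Ala-CGC-1-1 -0.32 to 0.43, tRNA-Ala-CGC-2-1 -0.63 to -0.45, tRNA-Ala-CGC-5-1 -0.93 to 0.18, tRNA-Ala-TGC-2-1 -1.36 to 1.19, tRNA-Ala-TGC-3-1 -0.33 to 0.43, tRNA-Ala-TGC-4-1 -0.30 to -0.14, tRNA-Cys-GCA-1-1 -0.72 to 0.42, tRNA-Cys-GCA-2-1 -0.72 to 0.44, tRNA-Cys-GCA-3-1 -0.72 to 0.45, tRNA-Thr-AGT-1-1 -0.49 to 0.25, tRNA-Thr-AGT-2-1 -1.29 to 2.20, tRNA-Thr-AGT-3-1 -0.55 to 1.21, tRNA-Thr-CGT-1-1 -1.44 to 0.43, tRNA-Thr-CGT-2-1 -1.10 to 0.64, tRNA-Thr-TGT-2-1 -1.01 to 0.83, tRNA-Thr-TGT-3-1 -0.81 to 0.60.

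Count models were not run, since whole reads were not recovered for single genes. Pseudocounts of 0.1 and 5 turned no direction among these results. Both filters, identical genes counted once and the fit with no variance trend leave the log2 fold changes as they are by construction. Counting depth limits original-cross replicate 1 most, where 10 RPM is 6.33 reads.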
